A study of Mus musculus with 3 samples.

Results

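Genes of cholesterol and fatty acid synthesis and of cholesterol efflux were followed in mouse macrophages grown from bone marrow. The 35 members were taken by symbol from a list chosen with earlier results of these data known. Each symbol matched a single gene among the 55536 mouse gene IDs of the deposited tables. The 3 libraries, labelled biological replicates 1, 2 and 3, form a single group of primary macrophages of strain C57BL/6J, profiled by RNA sequencing of polyadenylated RNA. Before harvest the cells received the stimulus at 100 ng/mL for 180 min. The labels name this agent lipid A in the description, and lipoprotein A, typed as a protein, in the source name and treatment fields. No age or genotype beyond the strain is given, and all 3 libraries carry the same donor identifier. No unstimulated group was analysed here, so levels describe stimulated cells and no value is a response to the stimulus. Nothing in the labels says that the replicates came from separate animals, so differences between them may be biological or technical.

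Cholesterol is built from acetyl-CoA through mevalonate, farnesyl diphosphate, squalene and lanosterol. When sterols in the endoplasmic reticulum run low, the escort protein SCAP carries the SREBP transcription factors to the Golgi for cleavage, and the INSIG proteins hold the complex back when sterols are plentiful. Macrophages take up much cholesterol from the particles and cells they engulf. They store it as esters or export it through the transporters ABCA1 and ABCG1, whose genes are targets of the oxysterol receptors LXR.

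Promoter sequences are shown for 3 members. SREBP acts through short elements near the start site, and of the 3 stretches only that of Hmgcs1 holds the sterol regulatory element searched here. RefSeq windows on GRCm38.p6, from 250 bases before to 50 bases after a start, were found for 27 of the 35 members, as 37 windows. The sterol regulatory element, searched as TCACNCCAC on both strands, was present in 1 of the 37 member windows, that of Hmgcs1, and in 1.24% of all 32851 windows. The stretch of Hmgcs1 lies at chr13:119690165-119690335, plus strand. Its capitals mark that element, TCACCCCAC, and 2 copies of ATTGG, the reverse strand of the CCAAT box bound by NF-Y. The stretches of Insig1, at chr5:28071277-28071336, plus strand, and Abca1, at chr4:53160011-53160070, minus strand, were chosen after the expression values were seen. In them, capitals mark the E-box CACGTG, which was found in 6 members, also Dhcr7, Hsd17b7, Sc5d and Scap. Whether SREBP acts through this E-box was not tested.
Hmgcs1: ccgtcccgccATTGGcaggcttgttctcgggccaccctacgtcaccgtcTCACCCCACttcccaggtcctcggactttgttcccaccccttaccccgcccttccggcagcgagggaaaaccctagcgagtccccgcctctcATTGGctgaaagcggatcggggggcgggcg
Insig1: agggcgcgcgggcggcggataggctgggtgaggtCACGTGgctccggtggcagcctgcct
Abca1: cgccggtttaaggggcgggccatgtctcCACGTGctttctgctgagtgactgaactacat

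Across the 37 windows, CCAAT on either strand was present in 22 (37.4% of all windows), the GC box GGGCGG in 27 (35.7% of all windows) and CACGTG in 7 (7.15% of all windows). The LXR element DR4, searched as AGGTCA repeated after a spacer of any 4 letters, was present in 0 of the 37 windows and in 0.0152% of all windows. These are matches of letters in short windows, not sites of binding.

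Summed over mouse genes, expected counts came to 24450338 in replicate 1, 34641026 in replicate 2 and 60595742 in replicate 3, so replicate 1 was the shallowest and replicate 3 the deepest. The lowest expected count of any member in any library was 88, for Fads2 in replicate 2. Detection was set at 1 TPM, a length-scaled abundance, in every replicate, and 10026 genes passed it. All 12 macrophage markers examined were detected, among them Csf1r, Cd68 and Lyz2. All 8 hepatocyte markers had 0 counts, as did 6 of 7 adipocyte markers, Adipoq, Plin1 and Lep among them. The remaining adipocyte marker, the receptor gene Adipor2, had 16.7 to 23.3 TPM.

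All 35 members were detected. Their median was 16.1 ± 3.06 TPM (SD, n = 3), against 14.6 ± 0.535 TPM for all detected genes. On the log2 scale, with 0.1 TPM added to every value, the members' median differed from that of detected genes by 0.12 ± 0.30, which is less than the spread between replicates. The levels spread widely, with 2 members at 100 TPM or more on average, 21 between 10 and 100 TPM and 12 under 10 TPM. By role, the difference was 2.26 ± 0.23 for the 6 efflux, transport and storage genes and 1.24 ± 0.40 for the 5 regulators. It was -0.44 ± 0.54 for the 7 genes of the mevalonate arm, -0.29 ± 0.36 for the 11 genes of the sterol arm and -1.56 ± 0.29 for the 6 fatty acid genes.

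**Figure D1:**
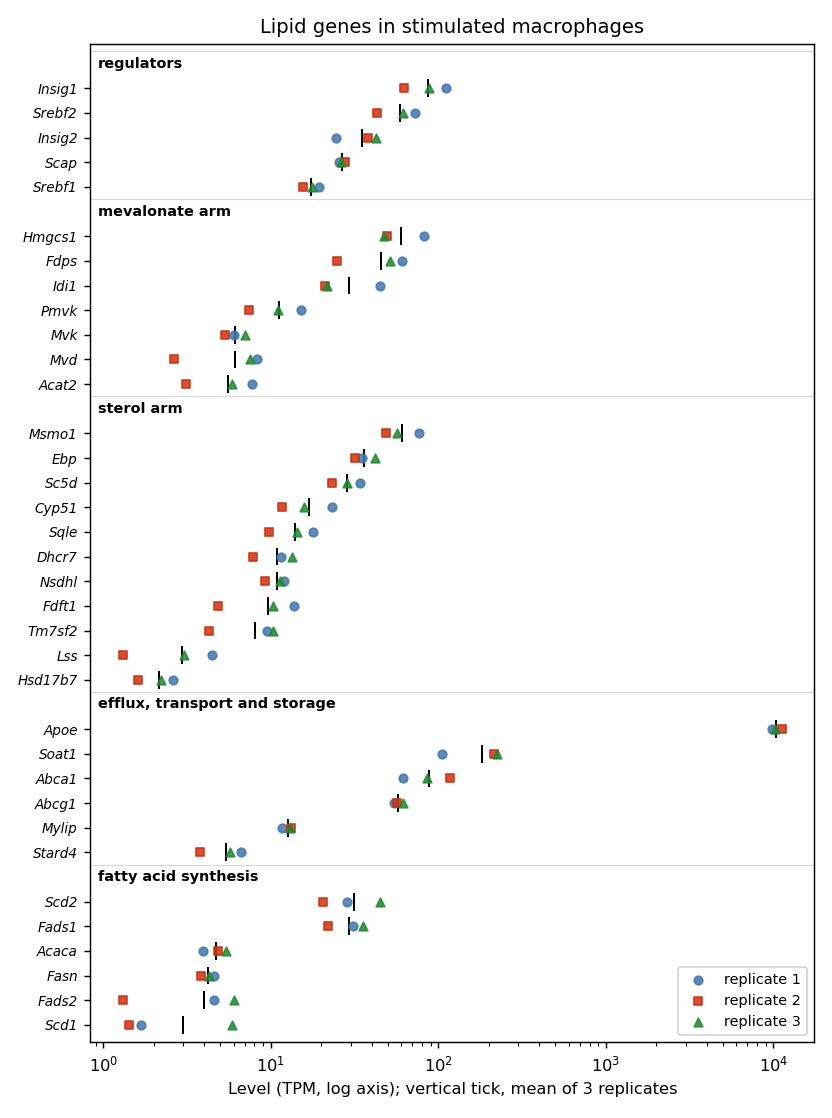
Level of each of the 35 members in TPM (log axis), ordered by role, with 1 point per replicate. Apoe stands near 10400 TPM, far above every other member, and the lowest mean belongs to Hsd17b7 at 2.15 TPM.

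Among the regulators, Srebf2, which encodes SREBP-2, the main activator of cholesterol synthesis genes, had 72.9, 42.9 and 61.2 TPM in replicates 1, 2 and 3. Srebf1, which encodes SREBP-1, the form tied mainly to fatty acid genes, had 19.3, 15.6 and 17.6 TPM. The Srebf2 level exceeded the Srebf1 level in every replicate, by 1.72 ± 0.24 on the log2 scale of TPM (3.29-fold). Scap, the escort gene, had 25.5, 27.8 and 26.2 TPM, so the replicates lay close together. Insig1, an ER retention gene that SREBP itself activates, was the highest regulator, with 111, 62.3 and 87.7 TPM. Insig2, whose product does the same work, had 24.4, 38.1 and 42.5 TPM and so ran in another order, lowest in replicate 1. The Insig1/Insig2 log2 ratio of TPM was accordingly uneven, at 2.19, 0.71 and 1.04, though Insig1 was higher in every replicate.

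In the mevalonate arm, Hmgcs1, the cytosolic HMG-CoA synthase gene whose promoter stretch is printed above, was highest, with 82.1, 49.6 and 47.7 TPM in replicates 1, 2 and 3. Fdps, which encodes the farnesyl diphosphate synthase, had 61.0, 24.9 and 51.3 TPM. Idi1, the isopentenyl diphosphate isomerase gene, had 44.7, 21.1 and 21.8 TPM. Replicate 1 was thus the highest for all 3 genes, whereas replicate 3 lay beside replicate 2 for Hmgcs1 and Idi1 and beside replicate 1 for Fdps. The remaining enzymes were lower. Pmvk, the phosphomevalonate kinase gene, had 7.45 to 15.1 TPM, and Mvk, the mevalonate kinase gene, 5.37 to 7.02 TPM. Mvd, the gene of the decarboxylase that follows them, had 8.23, 2.66 and 7.55 TPM. Acat2, which encodes the cytosolic thiolase that joins acetyl-CoA units at the start of the pathway, had 7.68, 3.11 and 5.89 TPM.

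Several of these counts are uncertain because other genes hold the same sequence. Of all 31-base words of the dominant transcript, 85.8% also occur in other genes for Fdps, 59.9% for Acaca, 50.5% for Acat2, 47.5% for Fdft1, 31.99% for Idi1, 15.6% for Hmgcs1 and 15.3% for Scap. The genes sharing most with Fdps, Acat2 and Acaca are Gm43738, Acat3 and Gm5182. Fdft1 shares 26.2% of its words with Ctsb, its neighbour on the opposite strand, and it is not stated whether the libraries kept strand. For the other 28 members the share is under 10%.

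In the sterol arm, Fdft1, the squalene synthase gene at the entry to sterols, had 13.8, 4.85 and 10.3 TPM in replicates 1, 2 and 3. Its log2 ratio to Fdps, which makes its substrate, was -2.26 ± 0.11, the steadiest of the 21 pairs examined. Sqle, the squalene epoxidase gene, had 17.8, 9.74 and 14.4 TPM. Lss, the lanosterol synthase gene, had 4.49, 1.32 and 3.05 TPM and lay below Sqle in every replicate, by a log2 ratio of Sqle over Lss of 2.32 ± 0.43. The next enzyme gene, Cyp51, which encodes the lanosterol demethylase, exceeded Lss by 2.58 ± 0.40 (5.97-fold), with 23.3, 11.6 and 15.8 TPM. Lss was therefore a low point between better represented neighbours in the order of the pathway.

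Msmo1, the gene of the oxidase that removes further methyl groups from sterols, led the arm with 76.6, 48.6 and 56.7 TPM in replicates 1, 2 and 3. Its partner in that step, the dehydrogenase gene Nsdhl, had 11.9, 9.28 and 11.4 TPM. The ketoreductase gene Hsd17b7 was the lowest member of the whole set, with 2.60, 1.62 and 2.22 TPM. The 3 genes of this demethylation step thus spanned more than an order of magnitude in level. Ebp, the sterol isomerase gene, had 31.6 to 41.9 TPM, and Sc5d, a sterol desaturase gene, 23.1 to 34.1 TPM. The reductase genes were lower. Dhcr7, which acts last in a branch of the pathway, had 11.5, 7.85 and 13.3 TPM, and Tm7sf2, a sterol reductase gene of earlier steps, had 9.48, 4.30 and 10.3 TPM.

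Among efflux, transport and storage genes, Apoe, which encodes the apolipoprotein that macrophages secrete to accept cholesterol, had 9777, 11192 and 10232 TPM in replicates 1, 2 and 3. It lay at the 99.9th percentile of detected genes. Soat1, the gene of the enzyme that esterifies cholesterol for storage, had 106, 216 and 223 TPM. Abca1, the exporter gene that loads lipid-poor apolipoproteins, had 61.9, 118 and 85.3 TPM. Soat1 and Abca1 shared the low value in replicate 1, the replicate in which 15 of the 18 mevalonate and sterol genes had their highest normalized count, against 31.6% of all genes tested. Abcg1, which exports to mature high-density lipoprotein, varied less, with 54.8, 56.8 and 61.6 TPM, and Abca1 lay above it in every replicate by 0.57 ± 0.45 on the log2 scale of TPM. In the second quantification Abca1 was below Abcg1 in replicate 1, at 43.5 against 55.9 TPM. Mylip, the gene of a ubiquitin ligase that removes lipoprotein receptors, had 11.6 to 13.2 TPM. Stard4, the gene of a soluble sterol carrier that SREBP activates, had 6.62, 3.80 and 5.71 TPM, and was the only gene of this group lowest in replicate 2 both in TPM and in normalized counts.

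In fatty acid synthesis, Fasn, the fatty acid synthase gene, had 4.61, 3.81 and 4.26 TPM in replicates 1, 2 and 3. Acaca, which encodes the acetyl-CoA carboxylase that supplies it, had 3.95, 4.82 and 5.38 TPM. The order of these paired enzymes changed between replicates, and the Fasn/Acaca log2 ratio of -0.15 ± 0.32 was smaller than its spread. In the second quantification Fasn lay below Acaca in every replicate, and the ratio was -0.82. The desaturase genes were uneven. Scd2 had 28.6, 20.4 and 45.0 TPM and Scd1 1.69, 1.42 and 5.87 TPM. Both encode stearoyl-CoA desaturases, and Scd2 was higher by 3.56 ± 0.57 on the log2 scale of TPM (11.8-fold), with replicate 3 highest for both. Fads1, a desaturase gene of polyunsaturated fatty acids, had 31.04, 22.1 and 35.4 TPM. Fads2, which encodes the desaturase that acts before it, had 4.61, 1.32 and 6.02 TPM, below Fads1 by 3.07 ± 0.78.

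**Figure D2:**
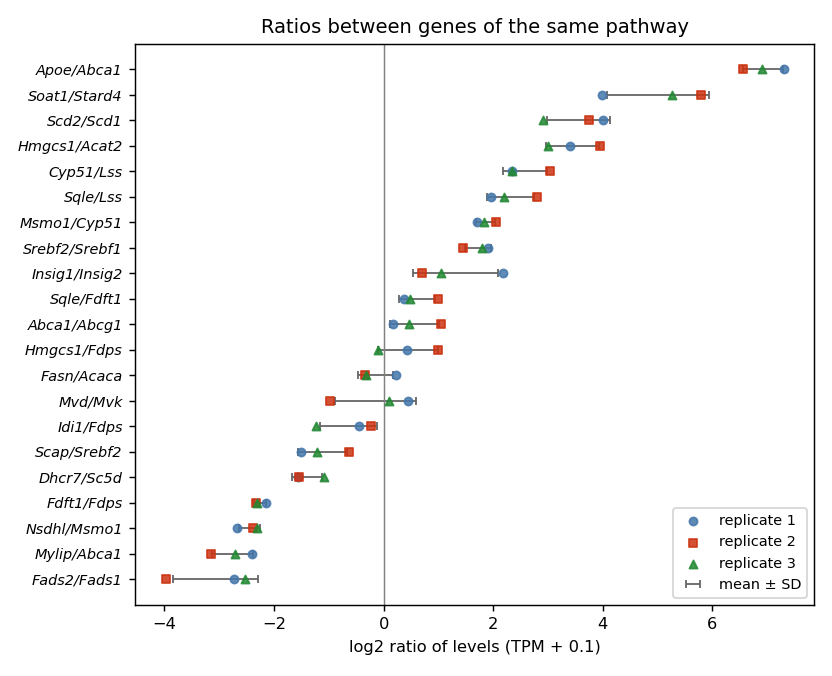
Log2 ratio of TPM for each of the 21 gene pairs, with 1 point per replicate and an error bar for the mean ± SD. For 18 pairs all replicates lie on the same side of 0, and the pairs that cross it are Hmgcs1/Fdps, Mvd/Mvk and Fasn/Acaca.

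In 18 of the 21 pairs the ratio kept its sign in every replicate, and 15 differed by more than 2-fold. Each of those 18 gave an adjusted p of 0.292 in the exact two-sided sign-flip permutation test, whose smallest unadjusted p with 3 replicates is 0.25, so the test cannot pass 0.05 in this design. The 3 exceptions were Hmgcs1/Fdps at 0.44 ± 0.55, Mvd/Mvk at -0.15 ± 0.75 and Fasn/Acaca.

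Most members differed between libraries by more than counting noise. Normalized counts were compared between libraries with edgeR's likelihood ratio test with dispersion at 0, which sets the difference against counting noise only and not against the spread of a condition. A gene was called at an adjusted p under 0.05 with its highest library at least 1.5 times its lowest. By this rule 24 of 35 members were called, against 33.2% of the 11611 genes tested. With no minimum fold, 33 of 35 passed, against 77.6% of genes. The 2 members that did not pass were Hsd17b7 (adjusted p = 0.175, edgeR) and Mylip (adjusted p = 0.109, edgeR).

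Replicate 2 was the low library for most members. The members were chosen with it known that cholesterol genes were low there, so the shares below describe the set and do not test it. Replicate 2 held the lowest normalized count for 28 of 35 members, against 36.6% of all genes tested. Of the 35, 21 were both called and lowest there, against 12.0% of genes. All 18 genes of the mevalonate and sterol arms were lowest in replicate 2, and 14 of them were called. For Hmgcs1 and Idi1 replicate 3 was nearly as low, and in deposited TPM, where Hmgcs1 and Scap were lowest in another replicate, the counts were 17 of 18 and 26 of 35. The median of the 18 genes in replicate 2 was 0.74 lower on the log2 scale of normalized counts than the mean of the other 2 replicates, a fold of 0.599, whereas the median of all genes tested was 0.01. In bulk RNA, fewer cells of a type and less RNA per cell cannot be told apart.

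**Figure D3:**
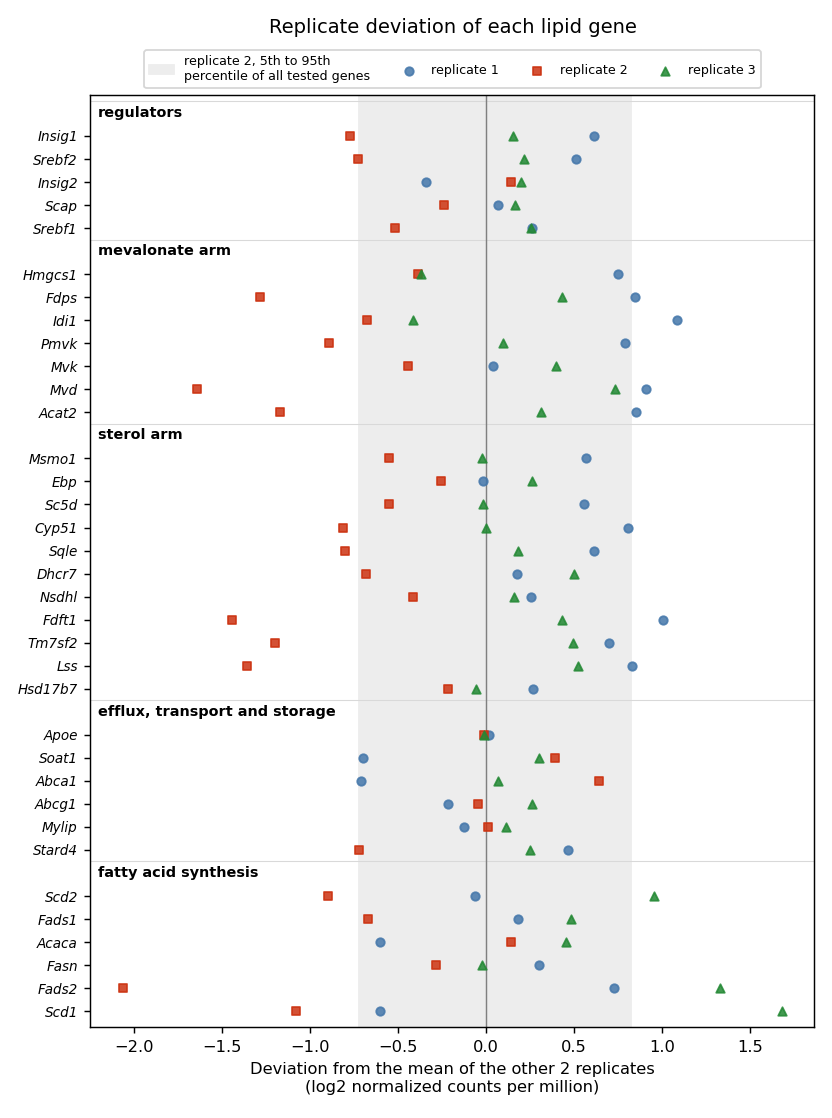
Deviation of each member in each replicate from the mean of the other 2 (log2 normalized CPM), ordered by role, with the shaded band spanning the 5th to 95th percentile of replicate 2 over all genes tested, -0.72 to 0.82. Replicate 2 lies left of 0 for nearly all synthesis genes and outside the band for 14 members, all on the low side.

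The size of the deviation in replicate 2 differed among members. Fads2 was lowest, at -2.06 (log2), followed by Mvd at -1.64, Fdft1 at -1.44, Lss at -1.36, Fdps at -1.28, Tm7sf2 at -1.20 and Acat2 at -1.17. Fads2, Mvd and Lss stood on 88, 91 and 135 expected counts in that library, and on 214, 198 and 247 in the shallower replicate 1. Among the sterol synthesis genes the smallest deviations were those of Ebp at -0.25 and Hsd17b7 at -0.21, and neither was called. Acaca was the synthesis gene above 0 in replicate 2, at 0.14, and was called. Among all members 14 lay below the 5th percentile of all genes in replicate 2, which was -0.72, and 0 lay above the 95th, which was 0.82. The median was -0.89 for the mevalonate arm, -0.68 for the sterol arm, -0.78 for the fatty acid genes, -0.52 for the regulators and 0.00 for the efflux, transport and storage genes.

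Among regulators, Srebf2 and Insig1 were called, both lowest in replicate 2 and highest in replicate 1, at -0.73 and -0.77 (log2) in replicate 2. Srebf1 at -0.52 and Scap at -0.24 were also lowest there but stayed under the 1.5-fold limit. Insig2 was at 0.14 in replicate 2 and lowest in replicate 1, also under the limit.

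Abca1 and Soat1 ran the other way. Both were called, highest in replicate 2 and lowest in replicate 1. Only these 2 of the 35 members were called and highest in replicate 2, against 14.4% of genes. With Acaca they made up the 3 of 35 members called and lowest in replicate 1, near the 9.53% of genes. They had deviations in replicate 2 of 0.64 for Abca1 and 0.39 for Soat1 (log2). For Soat1, replicates 2 and 3 were only 1.035-fold apart in normalized counts, and in deposited TPM replicate 3 was the highest. Nr1h3, the gene of the oxysterol receptor LXR alpha, was chosen after its values were seen and had 23.5, 53.7 and 26.7 TPM in replicates 1, 2 and 3, and was called. The list it comes from was mixed. Nr1h2, the gene of LXR beta, had 62.5, 46.0 and 57.9 TPM and was lowest in replicate 2, as were Scarb1, a lipoprotein receptor gene, at a deviation of -1.08 (log2), and Abca7, a transporter gene, at -0.98, both called and also chosen after their values were seen. Apoe differed little between libraries, with deviations of 0.02, -0.01 and -0.01.

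The fatty acid genes had their own order, with 5 of 6 highest in replicate 3, against 30.6% of all genes tested, and 5 of 6 lowest in replicate 2. Scd1 was 1.68 higher in replicate 3 than the mean of the others (log2), Fads2 1.33 higher and Scd2 0.96 higher. Acaca was lowest in replicate 1 instead. Over all members, 6 were called and highest in replicate 3, against 6.63% of genes. Fasn was highest in replicate 1 and was not called.

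Taking libraries pairwise, replicate 2 against replicate 3 gave 16 members called lower (8.17% of genes) and 0 higher (12.5% of genes). By edgeR's likelihood ratio test with no minimum fold, Abca1 and Soat1 were higher in replicate 2 than in replicate 3, by 1.29-fold and 1.03-fold, and these 2 were also the only ones at an unadjusted p under 0.05. Replicate 2 against replicate 1 gave 17 members lower (10.6% of genes) and 2 higher, Abca1 and Soat1 (10.5% of genes). Replicate 1 against replicate 3 gave 6 members called in all (12.3% of genes). Hmgcs1 and Idi1 were higher in replicate 1 (8.17% of genes), and Acaca, Scd1, Scd2 and Soat1 were lower (4.12% of genes). Without replicate 2, the count of called members was thus 6 (12.3% of genes), in place of 24 with all 3 libraries (33.2% of genes). Calls over all genes fell whichever library was left out, to 20.7% without replicate 1 and 21.1% without replicate 3.

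Other properties of replicate 2 moved with these results. The 12 neutrophil markers, of which 4 were detected in every replicate, summed to 93.8, 730 and 55.9 TPM in replicates 1, 2 and 3. The 5 of them that could be tested were all highest in replicate 2, by 10.8-fold in the median, while the defining marker Ly6g had 0 counts throughout. The 12 proliferation markers summed to 266, 466 and 331 TPM, and 8 of 9 tested were highest in replicate 2, against 37.8% of all genes. Most of each sum came from Pcna, with 208, 355 and 270 TPM. The exception was Mki67, with 28.5, 26.3 and 26.9 TPM, lowest in replicate 2 in normalized counts and not called. The 12 macrophage markers summed to 34426, 23583 and 28990 TPM, and 8 were lowest in replicate 2, against 36.6% of all genes, with a median deviation of -0.29 (log2). Of the 12, 5 were called, near the 33.2% of all genes. Of 8 stimulus response genes, 7 were lowest in replicate 3, against 30.5% of all genes. Of the 8, 3 were called, near the 33.2% of all genes. Replicate 1 was highest for 5 of them and replicate 2 for 3, against 31.6% and 37.8% of all genes. The cytokine gene Il1b had 661, 2399 and 544 TPM in replicates 1, 2 and 3, and Il6 had 135, 188 and 70.6 TPM, both highest in replicate 2 and lowest in replicate 3. The part of these differences in the lipid gene values was not tested.

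Base composition also moved with the library. Over all genes, the replicate 2 deviation ran from 0.37 (log2) in the tenth of genes with the lowest GC content to -0.35 in the tenth with the highest. The members' median transcript GC content was 49.6%, against 49.8% for all genes tested. With the median of genes of like GC content and length subtracted, a step added after seeing the data, the members' median in replicate 2 was -0.62 and that of the 18 sterol synthesis genes -0.79. The same step moved the regulators' median from -0.52 to -0.15.

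Related genes outside the set were read from 4 further lists. The list of SREBP processing and sterol sensing genes also holds Acat1 and Ggps1. Of its genes, 0 of 11 tested were called by edgeR's likelihood ratio test at 1.5-fold, against 33.2% of all genes. With no minimum fold 9 of 11 passed, near the 77.6% of all genes, and 9 stood at an unadjusted p under 0.05. In counts of the second quantification 1 of 11 was called. Among them, the ubiquitin ligase gene Rnf139 had 33.3 to 40.7 TPM. Of acetyl-CoA supply and elongation genes, 4 of 10 tested were called, near the 33.2% of all genes. Hsd17b12 and Elovl1, which act in chain elongation, were highest, with 116 to 137 and 95.9 to 116 TPM. Elovl6, which encodes the elongase that extends palmitate, had 7.62, 1.58 and 3.62 TPM in replicates 1, 2 and 3, low in replicate 2 like the sterol genes. Acacb, a mitochondrial carboxylase gene, was called on 10, 38 and 30 counts and stayed under 0.4 TPM.

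Of the LXR and lipid transport genes, 6 of 12 tested were called, against 33.2% of all genes. Lpl, the lipoprotein lipase gene, had 170, 879 and 374 TPM in replicates 1, 2 and 3, the same order as Abca1. Apoc2, which encodes the cofactor of that lipase, had 46.7, 21.9 and 40.4 TPM, the order of the sterol genes. Pltp, a phospholipid transfer protein gene, and Lipa, the lysosomal lipase gene, were the highest of this list, with 582 to 684 and 387 to 634 TPM. Of oxysterol synthesis genes, 2 of 3 tested were called, against the same 33.2%. Ch25h, the cholesterol hydroxylase gene induced in activated macrophages, had 15.9, 6.92 and 7.60 TPM, Cyp27a1, the mitochondrial sterol hydroxylase gene, 39.2, 25.5 and 40.4 TPM, and Hsd3b7, which acts on hydroxylated sterols, 20.3 to 22.6 TPM.

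In transcript use, for 34 of 35 members, a single transcript held 50% or more of the gene's summed TPM, and for 17 it held 90% or more. Both deposited quantifications named the same dominant transcript for 34 of 35. The exception was Fasn, where Fasn-201 held 39.4 ± 3.6% (SD, n = 3) and Fasn-205 21.6 ± 1.3%, while the second quantification gave Fasn-205 79.1%. The dominant transcript was annotated as protein coding for 34 members. For Apoe it was Apoe-202, annotated as a processed transcript, with 63.1 ± 6.7%.

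A second transcript held 20% or more for 8 members. For Srebf2, Srebf2-205, annotated with a retained intron, held 24.9%, 25.9% and 24.4% in replicates 1, 2 and 3, so its share hardly moved while the gene's level did. Hmgcs1-201 and Hmgcs1-202, which both encode 520 residues, held 66.5 ± 4.5% and 30.4 ± 5.2%. Fdft1-201 held 62.0 ± 9.3% and Fdft1-204 33.2 ± 4.4%. Soat1-206 varied more, with 16.4%, 23.3% and 32.2% of Soat1 in replicates 1, 2 and 3, beside 71.8%, 63.3% and 52.9% for Soat1-201. The remaining cases were Mvk, with Mvk-202 at 29.5 ± 8.6%, Msmo1, with Msmo1-206 at 22.7 ± 2.6%, and Apoe, with Apoe-209 at 26.1 ± 9.1%. In the second quantification Msmo1-206 held 9.5% and Hmgcs1-202 14.8%, both under the 20% limit.

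Srebf1 has alternative start sites, which give SREBP-1a from the upstream start and SREBP-1c from the downstream one. The dominant Srebf1-201 starts at base 60220604 of chromosome 11 (mm10, minus strand), encodes 1134 residues and held 73.3%, 69.8% and 83.5% in replicates 1, 2 and 3. Srebf1-207, which starts downstream at base 60210465, held 3.6 ± 0.6%. The files do not name the protein form of a transcript, and in the second quantification Srebf1-201 held 63.1%.

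**Figure D4:**
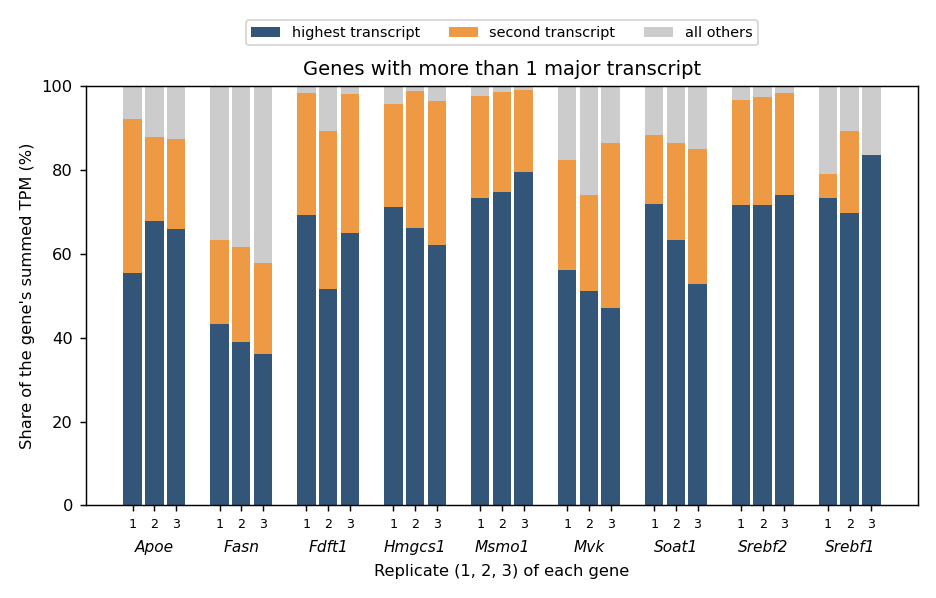
Share of the gene's summed TPM held by the dominant transcript, the second transcript and all others, in percent, with 1 stacked bar per replicate. Shown are the 8 members with a second transcript at 20% or more, and Srebf1. Srebf2 has the tightest shares and Soat1 is among the widest, with 52.9% to 71.8% for its dominant transcript.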

How the data were processed

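Polyadenylated RNA of 3 libraries was quantified by the authors against mm10 and GENCODE M21, per the text files deposited beside the tables. Which aligner and quantifiers made them, and whether strand was kept, is not given in the sources. The deposited tables hold, per the file headers, expected counts, TPM, FPKM and the percent of a gene held by each transcript. A second deposited quantification, derived from the reads and an index, holds estimated counts and TPM. TPM was used as deposited. FPKM served only for an alternative detection threshold, and the authors' percent column was recomputed from transcript TPM, with a largest difference of 0.326 percentage points.

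Expected counts were rounded, filtered with filterByExpr, scaled by TMM and compared between libraries in edgeR 4.0.16 (R 4.3.3) by a likelihood ratio test with dispersion fixed at 0, adjusted by Benjamini-Hochberg over 11611 genes. The quasi-likelihood test could not be used, since the library factor leaves no residual degrees of freedom. The procedure was checked on simulated counts. Deviations used log2 normalized CPM with a prior count of 2. Entries without a mouse gene ID held 0.117%, 0.0994% and 0.082% of counts in replicates 1, 2 and 3 and stayed out. A count of 0 allows up to 3 counts of a library, at most 1.23e-05% here, for counting error only. DESeq2 1.42.0 size factors were an alternative.

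All 35 members are named. Of each further list of related genes, the text names the 2 highest by mean TPM and up to 2 called genes with the largest fold. Nr1h3, Nr1h2, Scarb1 and Abca7 are named besides. For the marker lists the rule was not kept throughout. A gene that this rule selects is not reported here. Transcripts are named where a second one holds 20% or more or the quantifications differ. Members, lists and tests were chosen with earlier results of these data known, among them that cholesterol genes were low in replicate 2. Protein sequences were not used here.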

Additional observations from a re-analysis of the deposited data

How the results depend on the processing

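With a threshold of 5 TPM 24 members were detected, with 1 FPKM 32, and 35 under the other detection settings. The median deviations in replicate 2 of all members and of the 18 sterol synthesis genes kept their direction under every setting run, while that of the efflux, transport and storage genes, 0.00, ran from -0.05 to 0.12. That of the fatty acid genes was -0.47 without replicate 3, in place of -0.78. The deviation of all members in replicate 2 lay between -0.55 and -0.68, and that of the 18 sterol synthesis genes between -0.62 and -1.01. Scaling by library totals only gave a median of all genes in replicate 2 of 0.127 (log2), in place of 0.01, with the members at -0.55 and the sterol synthesis genes at -0.62. In TPM of the second quantification, 19 of 35 members and 12 of 18 sterol synthesis genes were lowest in replicate 2. Its median over detected genes was 14.4 TPM in replicate 2 against 11.4 TPM in both others, and divided by these medians the counts were 29 of 35 and 18 of 18, a step chosen after seeing the data.

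The 24 members called between libraries became 12 with a fold of 2 (12.0% of genes), all lowest in replicate 2 (12 in place of 21). Leaving out a library in turn gave 6 to 19 calls (12.3% to 21.1% of genes, against 33.2% with all 3 libraries), with 6 without replicate 2 (12.3% of genes). With replicate 2 kept, 16 to 17 members were called and lowest in it (8.17% to 10.6% of genes). Leaving out a library in turn also gave a member level of 0.04 to 0.33, 35 to 35 detected members, and 32 to 34 members with a dominant transcript at 50% or more. With replicate 2 kept, 29 to 33 members and 18 to 18 sterol synthesis genes were lowest in it. A gene is then lowest in 1 of only 2 libraries, so these counts cannot be set beside those from 3 libraries. The median of all genes in replicate 2 was 0.008 without replicate 1 and 0.005 without replicate 3 (log2). Restricted to members with under 10% shared 31-base words, 18 were called (33.2% of all genes), 16 of them lowest in replicate 2 (12.0% of all genes).

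With no filter on low values in the background, the member level was 3.53 and that of the fatty acid genes turned to 1.85, since genes near 0 then enter the background. In counts without length scaling, Idi1/Fdps turned to 0.78. Of the other pair ratios under all settings, 14 moved by more than 1 SD and 111 did not, and of the dominant shares 21 moved and 158 did not. No paired analysis was possible because the libraries form a single group. Depth limits Fads2, Mvd and Tm7sf2 most, with 88, 91 and 111 counts in replicate 2.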
